A study of Mus musculus with 4 samples.

Results

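The genes described here are 10 components of TGF-beta and activin signalling: the ligand genes Tgfb1, Tgfb2 and Tgfb3, the activin subunit genes Inhba and Inhbb, the matrix protein gene Ltbp2, the receptor genes Tgfbr1, Tgfbr2 and Tgfbr3, and the inhibitor gene Smad7. They were chosen by symbol, each symbol matched 1 gene, and they make up 10 of the 27998 genes counted. All 10 passed the filter on low counts in every comparison below.

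Single cells were profiled with droplet 3′ RNA sequencing from 2 pancreatic tumors of genetically engineered mice, a model of pancreatic ductal adenocarcinoma. All samples carry Trp53LSL-R172H/+ and Pdx1-Cre among their alleles on a C57BL/6J background, so that Cre under the Pdx1 promoter switches on mutant p53 in the pancreatic epithelium and not in the stroma; no normal pancreas is among the groups, and the labels give no age. The labels number the libraries of each fraction as biological replicates 1 and 2, and libraries with the same number were taken as 1 tumor. For each number there was 1 library of all live cells, meaning cells that exclude the dye DAPI. The other library was labelled as cancer-associated fibroblasts (sorted CAF), gated as live, negative for CD45, CD31 and EpCAM and positive for podoplanin. Each fraction therefore has 2 libraries, 1 per tumor. The stain as listed names no EpCAM antibody.

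The libraries held between 14972652 and 30950992 UMIs (transcript molecules, each counted once), and 7827 cells were kept. Levels are given as CPM, the UMIs of a gene per 1000000 UMIs in the summed cells, with 95% Poisson intervals that cover counting error only. Cells were clustered without the 10 genes and without the other pathway genes named below, and each cluster was called "-like" after a fixed marker list; every marker of its own list was detected in each class. Some clusters stayed unnamed, among them 1 of 201 cells led by Retnla that also held macrophage markers (18 cells in tumor 1, 183 in tumor 2). In the library labelled sorted CAF of tumor 1, ductal epithelial-like cells made up 76.2% and fibroblast-like cells 12.7%. In the sorted CAF library of tumor 2 they made up 10.6% and 72.6%. Any pair of libraries shared 4 to 6 cell barcodes. Fibroblast-like cells numbered 312 in tumor 1 and 993 in tumor 2, of which 878 came from the sorted CAF library of tumor 2. Within a class the tumors were held by different clusters: ductal epithelial-like cells of tumor 1 lay mostly in clusters led by Aqp5, Ttr and Chrna1 and those of tumor 2 in a cluster led by Agr2, macrophage or monocyte-like cells of tumor 1 mostly in a cluster led by Chil3 and those of tumor 2 in clusters led by Ms4a7 and Gm9733, and fibroblast-like cells of tumor 1 mostly in a cluster led by Cpxm2. Neutrophil-like cells of tumor 1 lay mostly in a cluster led by Camp and those of tumor 2 in clusters led by Gm5483 and Csf3r. The ductal epithelial-like clusters led by Aqp5, Ttr, Chrna1 and Fabp2 had none of Epcam, Cldn3, Cldn4 and Cldn7 among the markers that named them. Those led by Agr2 and Dcdc2a had each of these, so the class held unlike epithelium in the tumors.

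TGF-beta proteins are secreted in a latent form, in which the propeptide stays wrapped around the growth factor and is tethered to the matrix by latent TGF-beta binding proteins until integrins or proteases release it. The active dimer binds the type II receptor TGFBR2, which phosphorylates the type I receptor TGFBR1, and this in turn phosphorylates SMAD proteins that enter the nucleus with SMAD4; betaglycan, the product of Tgfbr3, presents ligand, TGF-beta 2 above all. Activin A and activin B are dimers of the INHBA and INHBB subunits, bind their own type II receptors and use the same SMAD proteins, while SMAD7, itself a target of the pathway, blocks the type I receptors. In pancreatic tumors TGF-beta is known both for restraining growth of epithelial cells and for driving contractile, matrix-producing fibroblasts.

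Of the 10 genes, 7 have an entry among the RefSeq promoters of build GRCm38.p6. The windows upstream of the start are shown for Tgfb1, Inhba and Ltbp2, which were lower together in 1 fibroblast state than in another below, and for Inhbb, which was not. Tgfb3 was lower in that state as well but has no entry. Capitals mark matches on either strand to CAGAC (a SMAD box) or GGGCGG (a GC box), motifs that did not overlap each other in these windows.
Tgfb1, chr7:25686752-25687001, plus strand: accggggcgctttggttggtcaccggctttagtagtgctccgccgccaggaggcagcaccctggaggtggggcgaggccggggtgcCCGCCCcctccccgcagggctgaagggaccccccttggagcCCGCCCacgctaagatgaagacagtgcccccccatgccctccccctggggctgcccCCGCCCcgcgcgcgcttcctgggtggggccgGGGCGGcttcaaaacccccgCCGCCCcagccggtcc
Inhba, chr13:16011601-16011850, plus strand: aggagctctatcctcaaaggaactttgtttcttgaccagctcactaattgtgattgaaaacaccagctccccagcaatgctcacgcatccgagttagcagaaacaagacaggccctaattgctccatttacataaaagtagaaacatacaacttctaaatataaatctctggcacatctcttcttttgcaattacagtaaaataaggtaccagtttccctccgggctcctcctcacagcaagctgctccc
Ltbp2, chr12:84876533-84876741, minus strand: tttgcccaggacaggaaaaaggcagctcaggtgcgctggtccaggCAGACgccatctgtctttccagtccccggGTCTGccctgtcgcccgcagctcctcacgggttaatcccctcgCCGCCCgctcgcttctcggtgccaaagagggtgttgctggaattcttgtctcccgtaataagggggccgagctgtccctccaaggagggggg
Inhbb, chr1:119422249-119422498, minus strand: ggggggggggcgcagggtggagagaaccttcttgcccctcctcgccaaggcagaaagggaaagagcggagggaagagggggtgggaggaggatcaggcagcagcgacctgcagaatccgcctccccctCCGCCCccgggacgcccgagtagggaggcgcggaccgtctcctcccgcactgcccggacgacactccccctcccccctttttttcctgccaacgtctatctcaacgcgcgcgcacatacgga

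The Tgfb1 window held 5 GC boxes and no SMAD box, the Inhba window held neither, the Inhbb window held 1 GC box, and the Ltbp2 window, of 209 bases and overlapping an exon of D030025P21Rik, held 2 SMAD boxes and 1 GC box. Of 32851 RefSeq promoter windows, 42.2% hold a SMAD box, 32.7% a GC box and 6.75% the AP-1 site TGANTCA, which none of these windows holds. Tgfb1, Inhba and Ltbp2 thus share no motif of the 3 searched, and Tgfb3, lower with them, had no window to search. A match is a string of letters and not a bound site.

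Tgfb1 (chromosome 7, 25687002 to 25705077) encodes TGF-beta 1, the ligand made by most leukocytes. Leukocytes, stroma and epithelium all carried it. Its level was 184 and 149 CPM in macrophage or monocyte-like cells of tumors 1 and 2, 176 and 189 CPM in B or plasma-like cells, 149 and 71.0 CPM in fibroblast-like cells, 121 and 47.8 CPM in ductal epithelial-like cells and 32.0 and 68.3 CPM in mesothelial-like cells. Ordered by the mean of both tumors, from 182 ± 9.48 CPM (SD, n = 2 tumors) in B or plasma-like cells to 50.1 ± 25.6 CPM (SD, n = 2) in mesothelial-like cells, no class had both its tumors above both tumors of the next. Blood endothelial-like cells held 250 CPM in tumor 1, the highest there among the classes measured in both tumors, and 70.3 CPM in tumor 2. In tumor 1 the B or plasma-like and blood endothelial-like sums rest on 21 cells each. Within each tumor, neutrophil-like cells (171 and 99.3 CPM) stood above fibroblast-like cells and these above ductal epithelial-like cells. In tumor 1, where the neutrophil-like sum rests on 34 cells, its counting interval included the fibroblast-like level. Of the classes with 20 cells only in tumor 2, dendritic-like cells carried 156 CPM, T or NK-like cells 122 CPM and acinar-like cells 24.3 CPM.

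Tgfb2 (chromosome 1, 186622792 to 186705989) encodes TGF-beta 2, the ligand that depends most on betaglycan. Its highest level was in pericyte-like cells of tumor 2, at 207 CPM (95% interval 173 to 246), the only tumor with enough of these cells. Mesothelial-like cells held 42.6 and 107 CPM and fibroblast-like cells 39.8 and 40.3 CPM. Ductal epithelial-like cells held 0.721 and 8.53 CPM, and macrophage or monocyte-like cells held no UMI in tumor 1, which allows up to 0.830 CPM (3 counts), and 1.05 CPM in tumor 2. Within the epithelium of tumor 2, the cluster led by Dcdc2a and Wfdc15b carried 68.1 CPM from 22 UMIs.

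Tgfb3 (chromosome 12, 86056745 to 86079041) encodes TGF-beta 3. Fibroblast-like cells held 81.2 and 76.2 CPM, mesothelial-like cells 53.1 and 49.1 CPM, and pericyte-like cells of tumor 2 held 96.3 CPM. Both tumors of the fibroblast-like class stood above both of the mesothelial-like class, which in turn stood above all other classes measured in both tumors. Ductal epithelial-like cells held 1.79 CPM in tumor 1 and 15.4 CPM in tumor 2. Fibroblast markers, summed over 11 genes, were 43.9 and 320 CPM in the ductal epithelial-like cells of tumors 1 and 2, beside 28460 and 38030 CPM in fibroblast-like cells; their part in the epithelial levels was not tested.

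Inhba (chromosome 13, 16011851 to 16031621) encodes the subunit of activin A. Mesothelial-like cells held 25.6 CPM in tumor 1 and 222 CPM in tumor 2, neutrophil-like cells 78.1 and 38.9 CPM, fibroblast-like cells 71.7 and 30.8 CPM, macrophage or monocyte-like cells 31.3 and 14.0 CPM and ductal epithelial-like cells 6.86 and 15.6 CPM. By the mean of both tumors, no class had both its tumors above both tumors of the next. Within each tumor, fibroblast-like cells stood above macrophage or monocyte-like cells. Neutrophil-like cells had the higher value than fibroblast-like cells in each tumor, but their counting intervals included the fibroblast-like level in both. That order is thus within counting error. The neutrophil-like sum of tumor 1 rests on 34 cells.

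Inhbb (chromosome 1, 119415465 to 119422248) encodes the subunit of activin B. Blood endothelial-like cells, 21 cells in tumor 1 and 32 in tumor 2, held 151 CPM (95% interval 98.8 to 222) and 153 CPM (98.3 to 228) from 26 and 24 UMIs. Fibroblast-like cells held 107 CPM in tumor 1 and 15.2 CPM in tumor 2, and adipocyte-like cells of tumor 2 held 92.5 CPM from 32 UMIs. The endothelial level thus stood above the fibroblast level in both tumors, although in tumor 1 its interval included the fibroblast level. Mesothelial-like cells held 1.70 and 1.07 CPM, ductal epithelial-like cells 0.419 and 1.71 CPM, and macrophage or monocyte-like cells 1 UMI in all.

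Ltbp2 (chromosome 12, 84783212 to 84876532) encodes a fibrillin-like matrix protein of the latent TGF-beta binding protein family, of which it is the member that does not hold latent TGF-beta. Fibroblast-like cells held 55.9 and 70.4 CPM of it, and both tumors stood above every other class measured in both. Mesothelial-like cells held 2.04 CPM in tumor 1 and 28.8 CPM in tumor 2, and ductal epithelial-like cells 1.02 and 6.58 CPM. Blood endothelial-like and B or plasma-like cells held no UMI, which at their depth allows levels of up to 6.10 to 19.2 CPM.

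Of the receptors, Tgfbr1 and Tgfbr2 stood highest in fibroblast-like cells in both tumors. Among the classes measured in both tumors, Tgfbr3 was highest in fibroblast-like and mesothelial-like cells. Tgfbr1 (chromosome 4, 47353222 to 47414931), the type I receptor, was at 116 and 95.6 CPM there, 65.7 and 46.9 CPM in mesothelial-like cells, 41.0 and 44.0 CPM in macrophage or monocyte-like cells and 10.7 and 26.8 CPM in the ductal epithelium. Tgfbr2 (chromosome 9, 116084293 to 116175360), the type II receptor, was at 253 and 271 CPM in fibroblast-like cells, a mean of 262 ± 12.8 CPM (SD, n = 2), above every other class in both tumors. Blood endothelial-like cells followed with 81.4 and 192 CPM of Tgfbr2, mesothelial-like cells with 60.6 and 170 CPM, macrophage or monocyte-like cells with 47.6 and 52.9 CPM, and ductal epithelial-like cells, lowest by the mean of both tumors among the classes measured in both, with 9.42 and 19.5 CPM. Tgfbr3 (chromosome 5, 107106570 to 107289629), betaglycan, was at 92.8 and 104 CPM in fibroblast-like cells and 108 and 78.9 CPM in mesothelial-like cells, which overlapped. Adipocyte-like cells of tumor 2 held 133 CPM of Tgfbr3. In ductal epithelial-like cells it was at 0.372 and 0.732 CPM and in macrophage or monocyte-like cells at 0.277 and 0.601 CPM, from 16, 3, 1 and 4 UMIs.

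Smad7, the inhibitory SMAD, was carried by epithelium and stroma alike. Mesothelial-like cells held 107 and 117 CPM, ductal epithelial-like cells 80.9 and 89.0 CPM and fibroblast-like cells 60.9 and 78.7 CPM, and in this order the tumors of neighboring classes did not overlap. Macrophage or monocyte-like cells, at 12.7 and 24.2 CPM, had the lowest mean of both tumors among the classes measured in both. T or NK-like cells of tumor 2 held 182 CPM from 97 UMIs, and acinar-like cells of tumor 2 held 6.4 CPM.

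**Figure D1:**
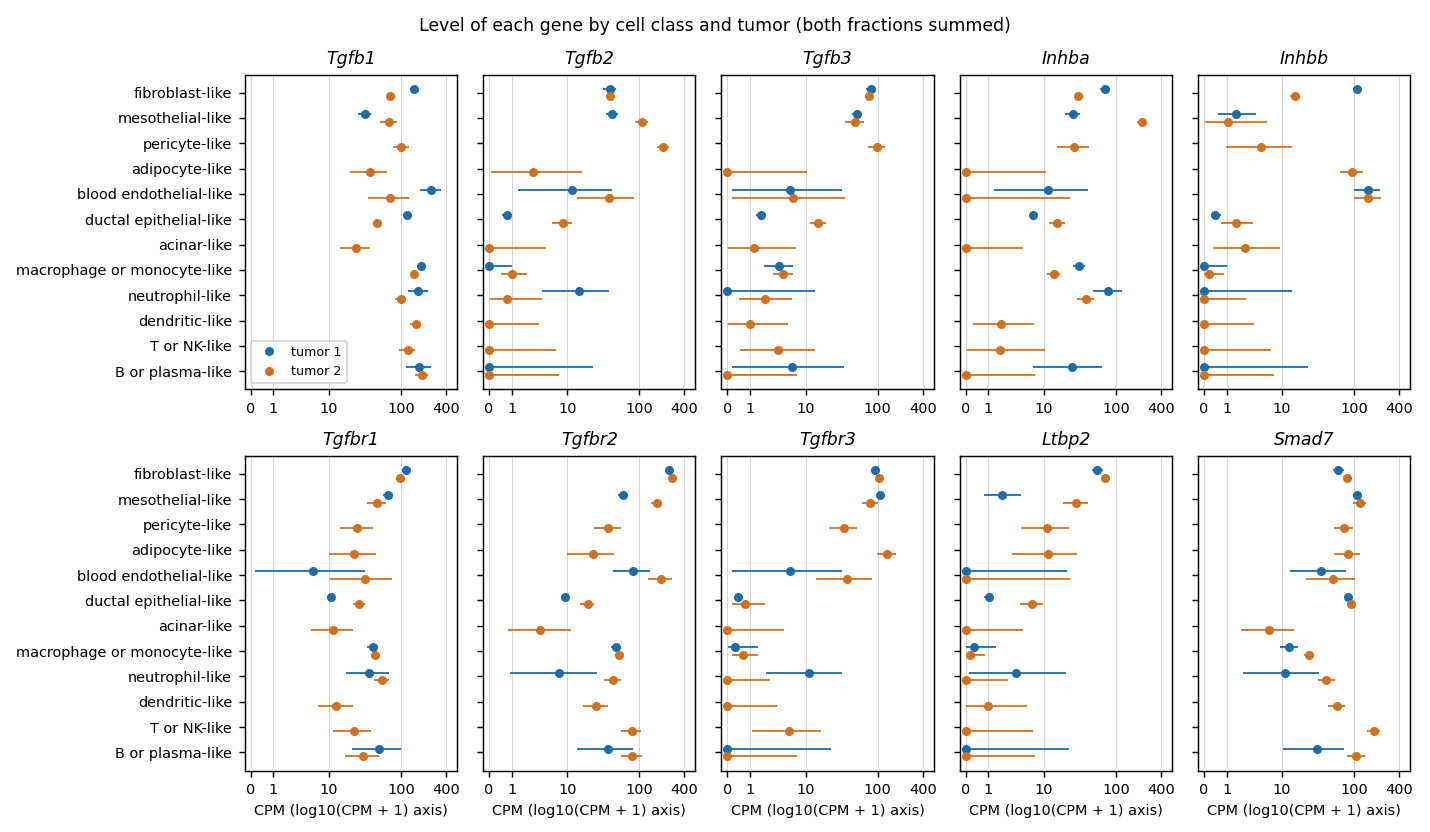
CPM (log10 of CPM + 1 axis) of each gene in each cell class of at least 20 cells, both fractions summed, with 1 point per tumor and a 95% Poisson interval. Tgfb1 points lie at similar heights in most classes, whereas Tgfbr2, Tgfbr3 and Ltbp2 points of ductal epithelial-like cells lie far below those of fibroblast-like cells.

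The first comparison of the design set the sorted CAF libraries against the all live libraries, all cells summed. The all live and the sorted CAF library of tumor 1 held 28.6 and 23.7 CPM of Tgfbr2, and the same pair of tumor 2 held 55.3 and 208 CPM. Ltbp2 was at 4.28 and 2.56 CPM in tumor 1 and at 3.81 and 53.1 CPM in tumor 2, and Tgfbr3 at 8.98 and 12.9 CPM in tumor 1 and at 7.61 and 80.5 CPM in tumor 2. Tgfb2 was at 3.91 and 6.35 CPM in tumor 1 and at 6.61 and 42.2 CPM in tumor 2, again with the all live library first, and Smad7 at 71.3 and 82.1 CPM and at 44.4 and 83.6 CPM. Tgfb1 was lower in the sorted CAF library of both tumors, at 109 against 134 CPM and at 69.4 against 120 CPM. In tumor 2 the libraries thus lay farther apart than in tumor 1 for each of these genes. The share of fibroblast-like cells was 7.15% and 12.7% in the all live and sorted CAF library of tumor 1 and 3.45% and 72.6% in those of tumor 2, and its part was not tested.

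None of the 10 genes was called at an adjusted p under 0.05 by edgeR's quasi-likelihood test (background 0% of 14030 genes tested, with 543 at an unadjusted p under 0.05); DESeq2 called 6 genes higher and 472 lower, again with none of the 10. The median log2 fold change of the 10 genes was 1.24, beside 0.05 for all genes tested, and the fitted values ran from -0.59 ± 0.50 (SE) for Tgfb1 to 2.67 ± 1.39 for Ltbp2. Without the library labelled sorted CAF of tumor 1 their median was 1.82, and without that of tumor 2 it was -0.16. In a sum over a whole library, more cells of a class and more RNA per cell cannot be told apart.

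**Figure D2:**
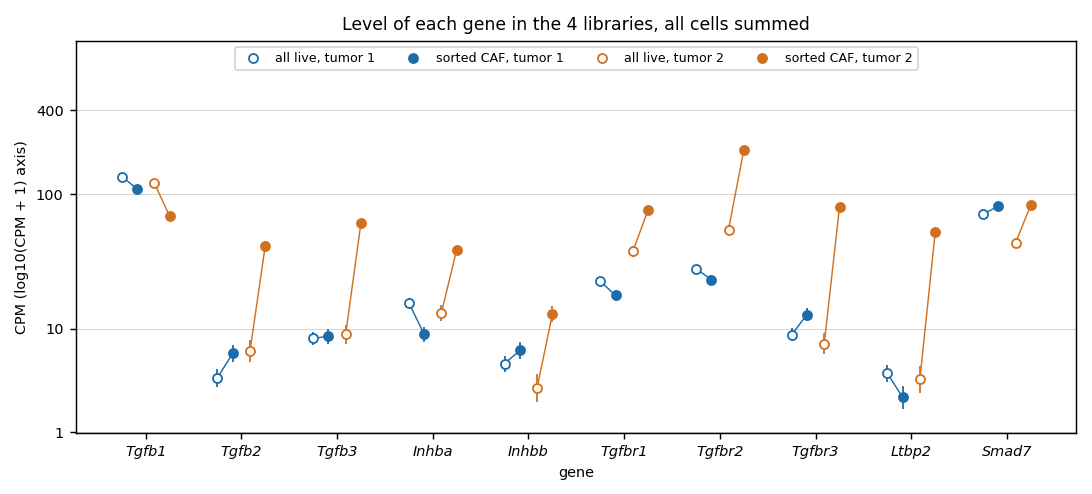
CPM (log10 of CPM + 1 axis) of each gene in the 4 libraries, open points for all live and filled points for sorted CAF, lines joining the libraries of a tumor and bars giving 95% Poisson intervals. In tumor 2 every gene but Tgfb1 is higher in the sorted library, while in tumor 1 Tgfb1, Tgfbr1, Tgfbr2, Inhba and Ltbp2 are lower there.

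The fractions were then compared within fibroblast-like cells alone. Their Tgfbr2 level in the all live and the sorted CAF library was 270 and 236 CPM for tumor 1, and 200 and 275 CPM for tumor 2. Tgfb3 was at 83.1 and 79.3 CPM in tumor 1 and at 76.2 CPM in both libraries of tumor 2. Tgfb1 was at 192 and 107 CPM in tumor 1 and at 56.5 and 72.0 CPM in tumor 2, and Inhbb at 93.1 and 122 CPM in tumor 1 and at 11.3 and 15.5 CPM in tumor 2, so for Inhbb the tumors differed more than the fractions. None of the 10 genes was called (edgeR, background 0% of 8687 genes, 66 of them at an unadjusted p under 0.05; DESeq2 called 21 genes, all lower, and none of the 10). The median log2 fold change was 0.01, as it was for all genes tested. Macrophage or monocyte markers summed to 194 and 340 CPM in the all live part of this class and to 39.7 and 40.5 CPM in the sorted CAF part; their role was not tested. With tumor as a block 9 genes were called higher and 34 lower in this comparison, none of the 10 among them.

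The class comparisons asked which cells carry ligand and which carry receptor transcripts, with 1 sum per tumor and class over both fractions and 7 classes in 1 fit. The classes come from the same cells that are compared, so these p-values describe the spread between the tumors and not an independent sample. Fibroblast-like cells stood above ductal epithelial-like cells in 6 of the 10 genes and below in none (background 12.6% of 12448 genes higher and 7.33% lower, 19.9% in all). All 3 receptors were higher: Tgfbr3 by 7.65 ± 1.01 on the log2 scale (SE; edgeR adjusted p = 0.00055), Tgfbr2 by 4.24 ± 0.70 (adjusted p = 0.0013) and Tgfbr1 by 2.56 ± 0.50 (adjusted p = 0.0034). In counts, Tgfbr2 was 26.8-fold higher in tumor 1 and 13.9-fold higher in tumor 2. Of the ligands, Inhbb was higher by 6.17 ± 1.01 (adjusted p = 0.0021) and Tgfb3 by 3.37 ± 0.77 (adjusted p = 0.0083), and so was the matrix gene Ltbp2 by 4.30 ± 1.14 (adjusted p = 0.022). The size of the Inhbb difference was 256-fold in tumor 1 and 8.92-fold in tumor 2. Ltbp2 was not called when either fibroblast-like sum or the ductal epithelial-like sum of tumor 1 was left out (adjusted p up to 0.10).

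Tgfb2 had a log2 fold change of 3.37 ± 1.13 that missed the threshold (adjusted p = 0.057, edgeR), and with tumor as a block it was called, at 3.86 (adjusted p = 0.0094). Inhba was not called (2.22 ± 0.99, adjusted p = 0.14, edgeR). With no filter on low counts edgeR called Tgfb2 (3.36, adjusted p = 5.0e-06) and Inhba (2.17, adjusted p = 0.0012) as well. That made 8 of the 10 genes higher, beside 2062 higher and 1502 lower of 19940 genes tested. Tgfb1 and Smad7 had log2 fold changes of 0.30 ± 0.64 and -0.27 ± 0.53, within the spread of the sums. The median of the 10 genes was 3.37, beside 0.00 for all genes tested. Among the other pathway genes, 8 of 13 tested genes of latency and activation were higher and none lower (median 2.67), 2 of 8 other receptors were higher (median 1.18), 3 of 15 SMADs and intracellular regulators were higher and 1 lower (median 0.63), 3 of 9 other ligands and secreted antagonists were higher and 2 lower (median 0.96), and 8 of 14 response genes were higher (median 2.85). The named genes of these lists were Lrrc32, which holds latent TGF-beta at the cell surface (142 and 85.3 against 0.186 and 1.46 CPM), the microfibril genes Fbn1 (542 and 1130 against 1.05 and 8.78 CPM) and Emilin1, the endothelial-type receptor gene Acvrl1 (38.5 and 38.3 against 0.279 and 0.488 CPM), the follistatin-like gene Fstl1, and the matrix genes Postn, Lox and Col5a1; the fitted log2 fold changes of these 8 ran from 6.38 for Col5a1 to 8.63 for Postn. The Fstl1 call was lost without the ductal epithelial-like sum of tumor 1 (edgeR adjusted p = 0.059).

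Against macrophage or monocyte-like cells, fibroblast-like cells were higher in 7 of the 10 genes and lower in none (background 16.6% of 12448 genes higher and 8.57% lower, 25.1% in all). Tgfbr3 was higher by 7.63 ± 1.05 on the log2 scale (edgeR adjusted p = 0.00035), Tgfbr2 by 2.38 ± 0.64 (adjusted p = 0.015), Tgfb3 by 4.21 ± 0.81 (adjusted p = 0.0022), Tgfb2 by 5.94 ± 1.37 (adjusted p = 0.0072) and Smad7 by 1.92 ± 0.55 (adjusted p = 0.022). Inhbb and Ltbp2 were also called (adjusted p = 0.00065 and 0.0028, edgeR), with only 1 and 2 UMIs in macrophage or monocyte-like cells, so their size is given from counts in each tumor. Inhbb was at least 129-fold higher in tumor 1, against a limit of 3 counts, and 101-fold higher (95% counting interval 17.95 to 4027) in tumor 2. Ltbp2 was 202-fold higher (35.7 to 8042) in tumor 1 and 469-fold higher (83.9 to 18540) in tumor 2. Tgfbr3 had 1 and 4 UMIs there, and its ratio was 335 (59.6 to 13310) and 173 (67.3 to 635). Tgfb2 was at least 47.9-fold higher in tumor 1, by the same limit, and 38.3-fold higher in tumor 2.

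Smad7 lost its call without any 1 of the 4 sums and in the all live libraries alone, Tgfbr2 without any 1 of the 4 sums, and Tgfb2 without the macrophage or monocyte-like sum of tumor 1; without that sum 4 of the 10 genes were called, and without any other 5. Tgfbr1 missed the threshold (1.31 ± 0.48, adjusted p = 0.065, edgeR) and was called with tumor as a block (1.31, adjusted p = 0.028). Tgfb1 was at -0.62 ± 0.64 and Inhba at 1.16 ± 0.96, neither called. The median of the 10 genes was 3.30, beside 0.25 for all genes tested.

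Of latency and activation 8 of 13 tested genes were higher and 2 lower (median 2.84), of other receptors 3 of 8 were higher (median 1.4), of SMADs and regulators 5 of 15 were higher and 1 lower (median 0.91), of other ligands and antagonists 7 of 9 were higher and 1 lower (median 6.27, or 5.65 with Bmp4, which had no UMI in macrophage or monocyte-like cells, at its bound), and of response genes 8 of 14 were higher and 1 lower (median 4.89, or 4.67 with Snai2 at its bound). Fstl1 was at 1336 and 1980 CPM against 1.38 and 1.20 CPM, Postn at 443 and 753 against 0.553 and 0.901 CPM, Ctgf, a secreted matrix regulator and target of the pathway, at 338 and 225 against 0.830 and 0.450 CPM, and Fbn1, Lox and Col5a1 were called as well. Ltbp4, another latent TGF-beta binding protein gene, was at 85.8 and 69.3 against 0.553 and 0 CPM, from 2 UMIs, a ratio of 155 (42.4 to 1288) in tumor 1 and at least 154-fold higher in tumor 2. Itgb8, a subunit of a TGF-beta activating integrin, had no UMI in macrophage or monocyte-like cells and was at least 60.1-fold higher in fibroblast-like cells over both tumors (at least 10.5-fold in tumor 1 and 43.2-fold in tumor 2); its call was lost without the macrophage or monocyte-like sum of tumor 2 (edgeR adjusted p = 0.066).

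With ductal epithelial-like cells set against macrophage or monocyte-like cells, 1 of the 10 genes was higher in the epithelium (background 14.4% of 12448 genes) and 1 lower (background 10.7%), against 25% of all genes called either way. Smad7 was higher by 2.18 ± 0.56 on the log2 scale (edgeR adjusted p = 0.012), which was 6.36-fold in tumor 1 and 3.68-fold in tumor 2. Tgfbr2 was lower by -1.85 ± 0.64 (edgeR adjusted p = 0.0497), at 0.198 and 0.369 times the macrophage or monocyte-like level. This Tgfbr2 call stood next to the threshold and was lost in 6 of 12 alternatives, each left-out sum among them, and the Smad7 call was lost without the macrophage or monocyte-like sum of tumor 1 and in the all live libraries alone. Without that sum none of the 10 was called, and without the ductal epithelial-like sum of tumor 1 there were 3 calls. With tumor as a block Tgfbr1 (-1.28, adjusted p = 0.033) and Ltbp2 (3.96, adjusted p = 0.043, edgeR) were called as well, 4 genes in all. That fit called 2451 genes higher and 1704 lower of 12448 tested. Tgfb1 was at -0.92 ± 0.64 and not called, at 0.658 and 0.321 times the macrophage or monocyte-like level. The median log2 fold change of all genes tested was 0.31 here and 0.19 with the other scaling, and that of the 10 genes was 0.41 and 0.30.

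Latency and activation genes split in this comparison, with 2 of 13 higher and 3 lower in the epithelium (median 0.71, or 0.35 with Itgb8, which had no UMI in macrophage or monocyte-like cells, at its bound). Nrros, which holds latent TGF-beta on myeloid cells, was in ductal epithelial-like cells at 0.675 and 1.46 CPM against 77.2 and 117 CPM, and Thbs1, a matrix protein that can activate latent TGF-beta, was at 10.5 and 51.2 against 1460 and 1942 CPM. Of response genes 3 of 14 were higher and 2 lower (median 0.09). Cdkn2b, a cell cycle inhibitor, was at 78.1 and 51.2 against 1.66 and 0.30 CPM, Ctgf at 9.72 and 66.8 against 0.830 and 0.450 CPM, and Tgfbi, an extracellular matrix protein, at 1.47 and 4.88 against 560 and 1199 CPM. Snai2 and the ligand gene Bmp4 had no UMI in macrophage or monocyte-like cells and were at least 5.67-fold and 7.42-fold higher in the epithelium over both tumors. Snai2 lost its call in 3 of 4 runs with a sum left out, all but the one without the ductal epithelial-like sum of tumor 2 (edgeR adjusted p up to 0.22), and Bmp4 without either macrophage or monocyte-like sum (up to 0.11). Acvrl1 was lower, at 0.279 and 0.488 against 15.8 and 12.2 CPM. Other ligands and antagonists were higher in 5 of 9 tested genes and lower in none (median 3.36, or 2.90 with Bmp4 at its bound). Of 15 SMADs and regulators (median 0.50) and of 8 other receptors (median -0.02), 1 was higher and 1 lower in each list.

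Mesothelial-like cells, named for the lining of the serosal surface, were set against fibroblast-like cells. They carried fibroblast markers at 16770 and 16930 CPM, beside 1999 and 2666 CPM of their own marker list. Of the 10 genes none was higher (background 0.586%) and 1 was lower (background 0.707% of 12448 genes, 1.29% in all). Inhbb was lower by -5.37 ± 1.06 on the log2 scale (edgeR adjusted p = 0.042), at 1.70 and 1.07 CPM against 107 and 15.2 CPM, from 5 and 1 UMIs against 259 and 173, a ratio of 0.0159 in tumor 1 (95% counting interval 0.00511 to 0.0375) and 0.0701 in tumor 2 (0.00176 to 0.396). That call was lost in 5 of 11 alternatives, and 3 of these left out a sum: either mesothelial-like sum or the fibroblast-like sum of tumor 1. The mesothelial-like sum of tumor 2 rests on 64 cells.

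Tgfbr2 (-1.33 ± 0.62), Ltbp2 (-2.34 ± 1.08), Tgfb1 (-1.25 ± 0.66) and Tgfbr1 (-1.0 ± 0.48) had negative and Inhba (1.15 ± 0.95), Tgfb2 (0.75 ± 1.02) and Smad7 (0.56 ± 0.53) positive fitted values, and none of them was called. The median of the 10 genes was -0.87, beside -0.07 for all genes tested. Of the pathway lists, 1 of 13 latency genes, 1 of 8 receptors and 2 of 14 response genes were lower and none was higher: Lrrc32 (5.45 and 8.53 against 142 and 85.3 CPM), the co-receptor gene Eng (4.77 and 9.60 against 93.6 and 80.3 CPM), Postn (3.75 and 11.7 against 443 and 753 CPM) and Ctgf (3.41 and 17.1 against 338 and 225 CPM). Postn, Lrrc32 and Ctgf lost their calls without any 1 of the 4 sums (edgeR adjusted p up to 0.34, 0.33 and 0.25), and Eng without the mesothelial-like sum of tumor 1 (0.11).

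**Figure D3:**
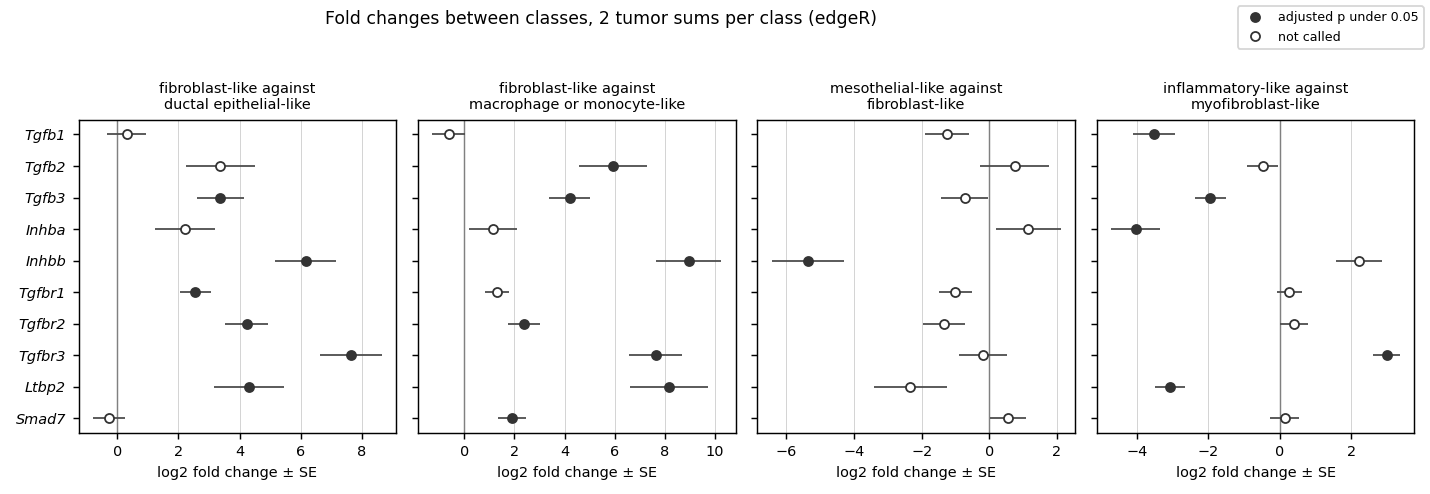
Log2 fold change (x axis, with SE) of each gene in 4 comparisons of classes or fibroblast states, each fitted with edgeR on 2 tumor sums per class; filled points passed an adjusted p of 0.05. The receptors lie to the right in both comparisons of fibroblast-like cells, and in the last panel Tgfb1, Inhba, Ltbp2 and Tgfb3 lie to the left and Tgfbr3 to the right.

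The fibroblast-like cells were split into subclusters, again without the 10 genes. An inflammatory-like subcluster of 296 cells (29 in tumor 1, 267 in tumor 2), led by Cxcl13 and Sema3c, held markers such as Il6, Cxcl12 and Clec3b. Myofibroblast-like cells, 59 in tumor 1 and 332 in tumor 2, held markers such as Acta2 and Tagln and comprised a subcluster led by Sema7a, Cspg4 and Tnc and a cycling subcluster led by Kif2c. Subclusters that stayed unnamed were 1 led by Scel and Arxes1 with 415 cells, 1 led by Gpnmb and Cpxm2 with 192 cells, 187 of them from tumor 1, and 1 of 11 cells led by leukocyte genes.

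The states differed in ligand, in Ltbp2 and in betaglycan. Tgfb1 was at 39.0 and 13.7 CPM in inflammatory-like and at 339 and 143 CPM in myofibroblast-like cells of tumors 1 and 2. Inhba was at 19.5 and 4.07 CPM against 156 and 67.4 CPM, and Ltbp2 at 24.4 and 12.2 CPM against 143 and 122 CPM. For these 3 genes both inflammatory-like sums lay below both myofibroblast-like sums. The same held for Tgfb3, at 24.4 and 20.7 CPM against 61.0 and 113 CPM. Tgfbr3 went the other way, at 185 and 237 CPM in inflammatory-like against 28.4 and 28.4 CPM in myofibroblast-like cells.

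Like the classes, the states come from the same cells that are compared. The p-values here too describe the spread between the tumors and not an independent sample. Of the 10 genes, 1 was called higher in inflammatory-like cells (background 2.64% of 9359 genes) and 4 lower (background 2.28%, 4.92% in all). Tgfbr3 was higher by 2.98 ± 0.38 on the log2 scale (edgeR adjusted p = 0.0022). Inhba was lower by -4.03 ± 0.69 (adjusted p = 0.0073), Tgfb1 by -3.52 ± 0.59 (adjusted p = 0.0067), Ltbp2 by -3.08 ± 0.43 (adjusted p = 0.0030) and Tgfb3 by -1.94 ± 0.43 (adjusted p = 0.028, edgeR). The Tgfb3 call was lost with DESeq2, with doublets kept and without either sum of tumor 2 (adjusted p up to 0.18), and the other 4 calls held in all 12 alternatives, the one without the cycling subcluster included. Inhbb was at 68.2 and 20.4 CPM against 4.26 and 9.60 CPM and missed the threshold (2.21 ± 0.64, adjusted p = 0.085, edgeR); with tumor as a block it was called (1.84, adjusted p = 0.00083), and without either sum of tumor 2 it was at 3.07 and 3.06 (adjusted p = 0.0014 and 0.014). Tgfbr1, Tgfbr2, Tgfb2 and Smad7 were not called, with fitted values between -0.48 ± 0.43 for Tgfb2 and 0.39 ± 0.39 for Tgfbr2. The median of the 10 genes was -0.17, beside 0.00 for all genes tested.

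The response genes of the pathway were lower in inflammatory-like cells in 5 of 14 tested and higher in none (median -0.19): Tnc, a matrix glycoprotein, was at 0 and 8.52 against 416 and 718 CPM, Ctgf at 63.3 and 67.8 against 254 and 350 CPM, Cdkn2b at 0 and 7.78 against 71.0 and 63.8 CPM, the crosslinking enzyme gene Tgm2 at 34.1 and 32.2 against 118 and 107 CPM, and the transcription factor gene Snai1 at 24.4 and 23.3 against 85.2 and 66.3 CPM. Of 12 tested latency and activation genes 2 were higher, Ltbp1 at 58.5 and 60.4 against 9.94 and 8.69 CPM and Fbn1 at 1515 and 1900 against 440 and 748 CPM, and none was lower. With a sum left out, Snai1 lost its call without either inflammatory-like sum or the myofibroblast-like sum of tumor 1 (edgeR adjusted p up to 0.19), Fbn1 without the inflammatory-like sum of tumor 2 or the myofibroblast-like sum of tumor 1 (up to 0.42), and Tgm2 without the inflammatory-like sum of tumor 2 (0.070), while Tnc, Ctgf, Cdkn2b and Ltbp1 were called in each. The latent TGF-beta binding protein genes Ltbp1 and Ltbp2 thus passed the test in opposite directions. No gene was called among 7 other receptors, 15 SMADs and regulators and 5 other ligands and antagonists. Ductal epithelial markers summed to 1361 CPM in myofibroblast-like cells of tumor 1 and to 210 CPM in inflammatory-like cells of tumor 1, and to 70.2 and 36.7 CPM in those of tumor 2; macrophage or monocyte markers summed to 55.4 and 68.2 CPM in tumor 1 and to 37.0 and 28.1 CPM in tumor 2. The part of these other cells' transcripts in the levels was not tested.

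For Tgfb1 and Tgfbr3 the other subclusters of at least 20 cells lay between the inflammatory-like one and that led by Sema7a in each tumor. Tgfb1 in the subcluster led by Sema7a was at 382 and 174 CPM, in the cycling subcluster of tumor 2 at 93.9 CPM, and in the Scel subcluster at 86.2 and 33.1 CPM. Tgfbr3 ran in the reverse order, with 26.0 and 17.8 CPM, 45.2 CPM, and 78.7 and 95.2 CPM. Other genes left this range in tumor 1. Tgfb3 was at 105 CPM in the Scel and 97.0 CPM in the Gpnmb subcluster. It was at 63.1 CPM in the Sema7a subcluster and 24.4 CPM in inflammatory-like cells. Ltbp2 in the Gpnmb subcluster (10.8 CPM, 13 UMIs) and Inhba in the Scel subcluster (3.75 CPM, 1 UMI) lay below inflammatory-like cells (24.4 and 19.5 CPM, 5 and 4 UMIs). Inhbb was concentrated in the unnamed subcluster led by Gpnmb and Cpxm2, at 197 CPM in tumor 1; Inhbb is itself among the leading genes of that subcluster. In the Scel subcluster Inhbb was at 15 and 17.8 CPM and in the Sema7a subcluster at 0 and 10.8 CPM. In inflammatory-like cells it was at 68.2 CPM (95% interval 37.3 to 114) and 20.4 CPM (15.3 to 26.5). The tumor difference of Inhbb over all fibroblast-like cells thus went with a subcluster of which 187 of 192 cells came from tumor 1. Inflammatory-like cells differed between the tumors in the same direction, and the Sema7a subcluster in the other.

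**Figure D4:**
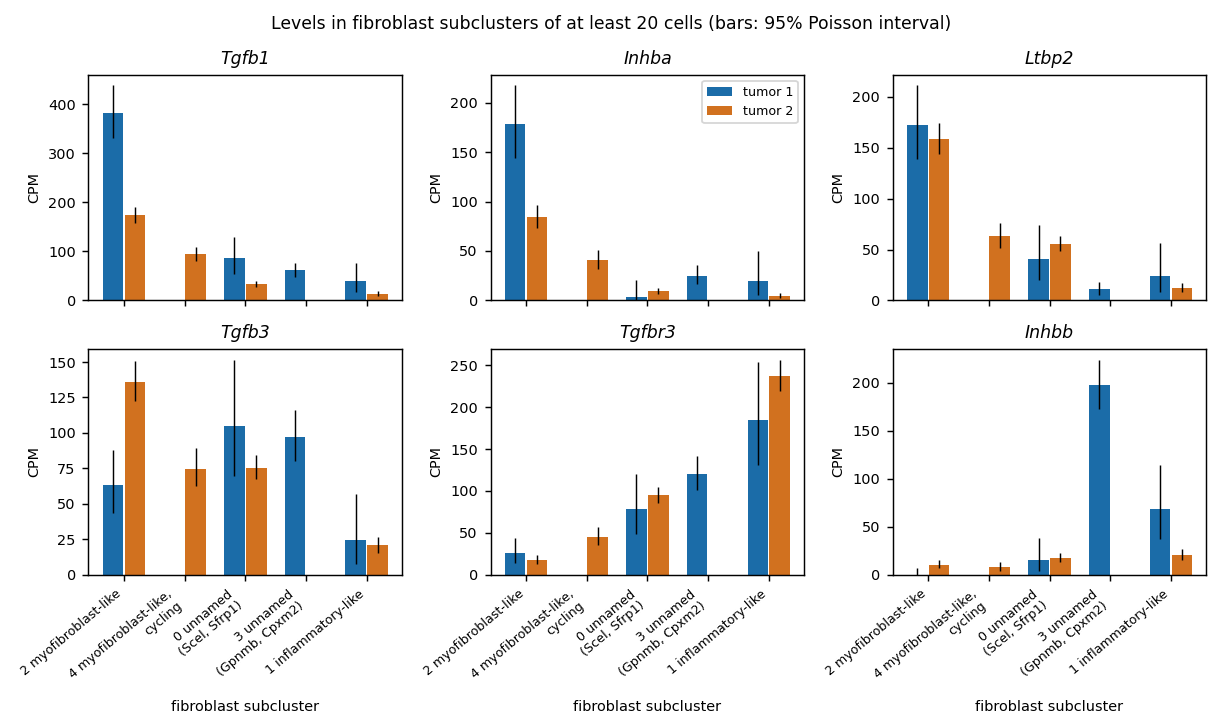
CPM (linear axis) of 6 genes in fibroblast subclusters of at least 20 cells in a tumor, 1 bar per tumor with 95% Poisson interval. Tgfb1, Inhba and Ltbp2 bars are tallest in the myofibroblast-like subcluster led by Sema7a, Tgfbr3 bars in the inflammatory-like subcluster, and the tallest Inhbb bar, 197 CPM, belongs to the unnamed subcluster led by Gpnmb.

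Within the epithelial and myeloid classes the clusters differed in Inhba, Tgfb1 and Smad7. Inhba in ductal epithelial-like cells of tumor 1 was at 1.01 and 0.884 CPM in the clusters led by Aqp5 and Ttr, at 25.7 CPM in the cluster led by Chrna1, and at 143 CPM in 31 cells of the cluster led by Agr2, which in tumor 2 held 12.2 CPM. The Chrna1 cluster also had the highest epithelial Tgfb1, 210 CPM, and Smad7, 114 CPM. Smad7 was lowest in the cluster led by Fabp2, at 8.30 and 2.25 CPM, where Tgfbr2 was at 0.755 and 2.25 CPM. Elsewhere in the epithelium Tgfbr2 stayed between 7.49 CPM in the Aqp5 cluster and 39.6 CPM in the Agr2 cluster of tumor 1.

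Of the macrophage or monocyte-like clusters, the one led by Chil3 and Fabp7 held Inhba at 30.4 CPM in tumor 1 and 77.7 CPM in tumor 2, while the clusters led by Ms4a7 and Gm9733 held 9.12 and 11.2 CPM in tumor 2. The neutrophil-like cluster led by Gm5483 was at 64.5 CPM in tumor 2 and that led by Csf3r at 18.6 CPM. Tgfb1 lay between 88.3 and 194 CPM in all macrophage or monocyte-like clusters.

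**Figure D5:**
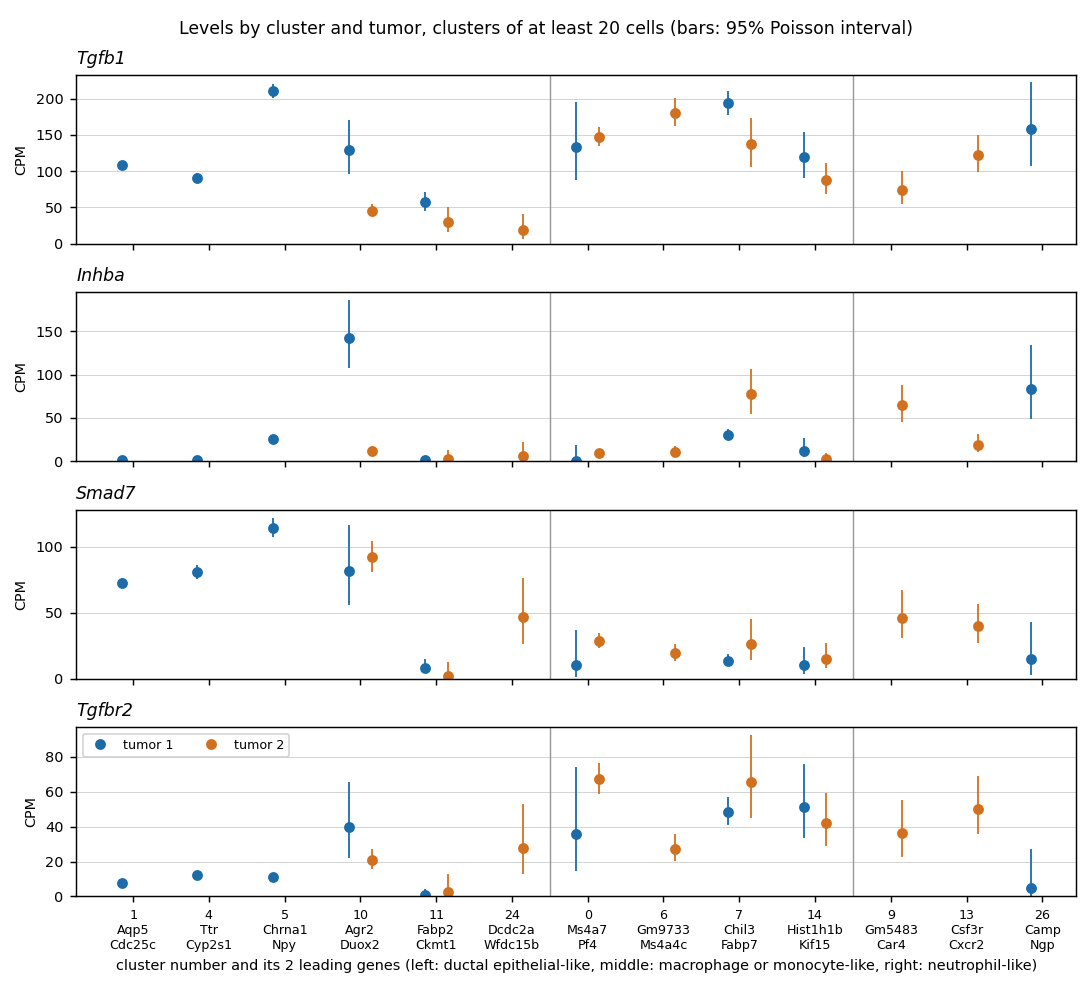
CPM (linear axis) of 4 genes in ductal epithelial-like, macrophage or monocyte-like and neutrophil-like clusters of at least 20 cells in a tumor, 1 point per tumor with 95% Poisson interval. For Inhba the cluster led by Agr2 stands out in tumor 1 at 143 CPM, and for Smad7 every epithelial cluster but the one led by Fabp2 lies above all myeloid ones, the Dcdc2a cluster only just, at 46.4 against 46.3 CPM.

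The genes most like each of the 10 in pattern were taken by Pearson correlation of log2(CPM + 1) over 19 sums of 12 classes by tumor, among 11599 genes; sums of a class share libraries and depth, so the coefficients are descriptions. Tgfb1 was most like the actin gene Actb (r = 0.856), followed by Arpc4 and Sft2d1. Tgfb2 was most like Rhoj (0.946), Loxl2 and Olfml2b, and Tgfbr3 like Rarres2 (0.942), Serping1 and Col5a2. Ltbp2 was most like Slit2 (0.923), Lum and Bmper, and Inhbb like Pcdhb9 (0.920), Nox4 and Ly6c1. For Tgfb3 they were Arl1 (0.898), Sdf2 and Pkd2, for Tgfbr1 Csf1 (0.824), Lrp1 and Vcan, for Tgfbr2 Svbp (0.860), Tor1b and Mia3, for Inhba Pla2g4a (0.799), 1810058I24Rik and Tm7sf3, and for Smad7 Arid4b (0.903), Srsf11 and Bbx. Among the 10 genes themselves, Tgfb2 and Tgfbr3 (r = 0.811) and Tgfb2 and Tgfb3 (0.760) were the pairs most alike over the 19 sums, and Tgfb1 and Tgfbr3 (-0.358) the least.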

How the data were processed

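Droplet 3′ libraries of 2 tumors were analysed from UMI counts per gene and cell that the authors deposited as filtered matrices; per the submitters' processing notes they used CASAVA 1.4, Cell Ranger 2.0.0 and mm10. The gene and barcode tables hold text. A design text names technical replicates, which cannot be separated here. The labels give 1 library per replicate number and fraction, and p-values measure the spread between 2 tumors only, taking each number as 1 tumor.

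Barcodes under 500 genes or above 10% mitochondrial UMIs were left out, and 157 doublets were removed by the highest scores, at 0.8% per 1000 cells, since Scrublet (expected rate 0.05) marked only 27. Cells were clustered with scanpy 1.11.5 and leidenalg 0.10.2 (2000 variable genes, 30 components, 15 neighbours, resolution 1). A cluster was named from at least 3 markers. Sums of at least 20 cells were tested two-sided with edgeR 4.0.16 (TMM, filterByExpr, quasi-likelihood) in R 4.3.3, with Benjamini-Hochberg adjustment over all genes tested at 0.05; an SE is the log2 fold change over the root of F. The scripts were tested on simulated data. DESeq2 1.42.0 was an alternative. Sums with the same number were taken as the same tumor, which the labels do not state. Between fractions, which are separate libraries, the deviations of these sums from the group means correlated at 0.67 and 0.71. Between classes or fibroblast states they correlated at 0.34 to 0.47. Those sums share libraries, so the lower values cannot show whether a number stands for 1 tumor. An exact permutation test of 2 against 2 cannot go below p = 0.333.

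The 10 genes and all lists were chosen with earlier results of these data known. Of the pathway lists, up to 8 called genes with the largest fold change were named per comparison. Gene positions are from GENCODE vM21 (GRCm38). One allele of the genotype is not reported here.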

Additional observations from a re-analysis of the deposited data

Results flagged for a closer look

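Several genes moved in opposite directions in the tumors, with 95% counting intervals that excluded a ratio of 1 in both; the difference between the tumors was not tested. In sorted CAF against all live libraries, the ratio of CPM was 0.7825 in tumor 1 and 2.006 in tumor 2 for Tgfbr1, 0.828 and 3.753 for Tgfbr2, 0.5679 and 2.968 for Inhba, and 0.5978 and 13.96 for Ltbp2. Tgfb3 in ductal epithelial-like against macrophage or monocyte-like cells was at a ratio of 0.4624 in tumor 1 and 3.41 in tumor 2. Inhba in mesothelial-like against fibroblast-like cells was at 0.3564 and 7.205. Tgfbr2 in inflammatory-like against myofibroblast-like fibroblasts was at 2.088 and 0.8869.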

How the results depend on the processing

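Each comparison was repeated with tumor as a replicate block, other size factors, DESeq2, no filter on low counts, each sum left out, doublets kept, at least 1000 genes per cell, finer clustering and, for classes, all live libraries alone (not possible for mesothelial-like cells, of which tumor 2 held 12 there); the run without the cycling subcluster was chosen after seeing the data. The number of the 10 genes called ranged over left-out sums from 5 to 7 for fibroblast-like against ductal epithelial-like cells, from 4 to 5 against macrophage or monocyte-like cells, from 0 to 3 for ductal epithelial-like against macrophage or monocyte-like cells and from 0 to 1 for mesothelial-like against fibroblast-like cells. The number of all genes called changed between left-out sums as well, and these ranges are not corrected for it. With the replicate block 4 of the 10 genes were called for ductal epithelial-like against macrophage or monocyte-like cells. All genes called there were 2451 higher and 1704 lower of 12448. With at least 1000 genes 1 of the 10 was called, beside 1771 higher and 1310 lower of 12187. For mesothelial-like cells 2 of the 10 were called with no filter. None was called with doublets kept (58 higher and 64 lower of 12367) or finer clustering (62 and 63 of 12571). With the block, all genes called went from 247 higher and 213 lower to 821 and 756 between fibroblast states and from 73 and 88 to 162 and 182 for mesothelial-like cells (306 and 339 with no filter, 16 to 37 in all with a sum left out). Between the fractions of fibroblast-like cells no gene was called in the main fit, against 9 and 34 with the block and 10 and 55 with no filter.

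Changes of sign were seen in genes that were not called; the cause was not tested. Between fractions of fibroblast-like cells Tgfbr3 was at 0.0061 with no filter and 0.025 with doublets kept, and Inhba at -0.017 with at least 1000 genes. For ductal epithelial-like against macrophage or monocyte-like cells Tgfbr3 was at 0.017 with DESeq2, 0.046 with no filter, 0.26 with doublets kept, 0.42 with at least 1000 genes and 0.24 in all live libraries alone, where Tgfb3 was at -0.29. Between fibroblast states Smad7 was at -0.039 with doublets kept and -0.095 with at least 1000 genes. With a library left out, sorted CAF against all live ran from -0.82 to 1.18 for Tgfbr1, -0.88 to 2.16 for Tgfbr2, -0.74 to 1.29 for Inhba, -0.71 to 3.57 for Ltbp2 and -0.051 to 2.68 for Tgfb3, each lowest without the sorted CAF library of tumor 2. Within fibroblast-like cells these ranges were -1.72 to 2.41 for Inhbb, -0.24 to 0.19 for Tgfbr1, -0.27 to 0.26 for Tgfbr3, -1.06 to 0.57 for Tgfb1, -0.050 to 0.29 for Tgfbr2, -0.62 to 0.70 for Inhba, -0.97 to 0.17 for Ltbp2 and -0.22 to 0.32 for Smad7. In the other comparisons they were -0.32 to 1.29 for Tgfb1 (fibroblast-like against ductal epithelial-like), -0.46 to 0.62 for Tgfbr3 and -1.12 to 1.74 for Tgfb3 (ductal epithelial-like against macrophage or monocyte-like), -0.37 to 0.070 for Tgfbr3 and -1.03 to 2.10 for Inhba (mesothelial-like), and -0.057 to 1.04 for Tgfbr2 and -0.85 to 0.49 for Smad7 (fibroblast states).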
